A study of Homo sapiens with 6 samples.

Results

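NEDD4L was examined through the listed peaks of RNA polymerase I (Pol I) and RNA polymerase II (Pol II) over 1 stretch of chromosome 18, from 55691 to 56090 kb on hg19. The gene is on the plus strand and was taken to span about 55711 to 56069 kb, a span rounded to the kb and not read from an annotation of hg19. The window adds 20 kb before the gene and 21 kb after it. It was selected on the BMH-21 Pol II list, which holds its longest dense run of peaks here, so the number, length and cover of that run are given as a description. Of 84817 peaks in 4 lists, 218 lay in the window. They were 17 of 42547 DMSO Pol I peaks, 1 of 1932 BMH-21 Pol I peaks, 17 of 28798 DMSO Pol II peaks and 183 of the 11540 peaks listed for Pol II after BMH-21.

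The peaks come from chromatin immunoprecipitation with sequencing in LNCaP, an established androgen-responsive line of human prostate cancer. Cells received the solvent DMSO or 1 µM BMH-21 for 6 h, and chromatin was precipitated with an antibody against Pol I (C-1) or one against the form of Pol II that carries phosphate on serine 5 of the C-terminal repeat (4H8). Each of these 4 groups had 1 library, and 2 input libraries, 1 per treatment, were not analysed here. Differences between treatments are therefore given with neither a replicate error nor a test, and read depth is unknown because the lists hold no read counts. The lists keep the caller's running numbers with many of them skipped, and hold no peak with a score below 50, so polymerase may also have been present where no peak is listed. Markers of the line could not be looked up, since no gene positions on hg19 were used.

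NEDD4L encodes a ubiquitin ligase of the HECT class, whose WW domains bind short proline-rich motifs of its substrates. It is best known for marking the epithelial sodium channel for removal from the cell surface. Pol II transcribes such a gene from its promoter to beyond its polyadenylation site, and serine 5 phosphorylation is typical of the enzyme soon after initiation. Pol I transcribes the ribosomal RNA precursor and not NEDD4L. BMH-21 is a DNA intercalator that inhibits Pol I and is known to lower the amount of its largest subunit, which was not measured here.

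NEDD4L can start at several places, and RefSeq gives 5 start windows for it on GRCh38.p14, all on the plus strand. The 100 bases before each are shown as a description of the gene. CG steps are in capitals. On GRCh38.p14 they lie, in order, at chr18:58047126-58047225, chr18:58149220-58149319, chr18:58195305-58195404, chr18:58221471-58221570 and chr18:58255416-58255515.
start 1: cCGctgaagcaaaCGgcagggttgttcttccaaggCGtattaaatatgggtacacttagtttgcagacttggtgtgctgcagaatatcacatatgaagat
start 2: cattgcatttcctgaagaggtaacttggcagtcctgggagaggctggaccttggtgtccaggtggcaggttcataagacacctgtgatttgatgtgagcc
start 3: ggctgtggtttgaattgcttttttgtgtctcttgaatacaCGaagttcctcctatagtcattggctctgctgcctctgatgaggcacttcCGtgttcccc
start 4: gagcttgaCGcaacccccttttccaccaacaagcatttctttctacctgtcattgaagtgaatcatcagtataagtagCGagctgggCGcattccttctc
start 5: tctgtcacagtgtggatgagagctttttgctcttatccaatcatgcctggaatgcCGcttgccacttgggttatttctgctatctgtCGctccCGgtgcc

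These upstream stretches held fewer CG steps than the median promoter. The 250 bases before the 5 starts held 6, 2, 3, 4 and 6 CG steps, a motif that reads the same on both strands, against a median of 11 over 35116 RefSeq promoter windows, of which 93.9% held at least 1. The share of those windows with fewer was 38.1, 14.7, 22.9, 29.3 and 38.1%. Their GC content was 41.2, 46.8, 50, 49.2 and 50.8%, against a median of 58.0%. The 5 positions are on another build than the peaks and were not set against them. In RefSeq's gene order the protein-coding neighbours of NEDD4L are ATP8B1 before it and ALPK2 after it, and the non-coding gene LOC105372143 lies within its span.

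After BMH-21, listed Pol II peaks filled the downstream part of NEDD4L and little of its upstream part. The 183 peaks covered 216.3 kb, or 54.2% of the window. Of the 7529 windows of the same length laid side by side along the chromosomes, 0% (0 windows) held as many BMH-21 Pol II peaks and 0% as much covered length, which is a description only, because the window was selected on these peaks. The fixed grid cuts through dense loci, NEDD4L included, since its fullest window held 151 BMH-21 Pol II peaks. The 0% for peaks therefore depends on where the grid was laid. A window of this length placed from chr21:22370429 held 194 peaks, more than over NEDD4L, with 183.4 kb covered. In the DMSO list, 17 Pol II peaks covered 9.28 kb, or 2.33% of the window, and 4.81% of the windows held as many or more. Only 4 of the 17 had a score at or above the median of their list. The BMH-21 to DMSO ratio in the window was 10.8 in peaks and 23.3 in covered length. BMH-21 outnumbered DMSO in 13.9% of the 5708 windows with a listed Pol II peak. A change in the phosphorylation of Pol II and a change in its position cannot be told apart with this antibody.

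**Figure D1:**
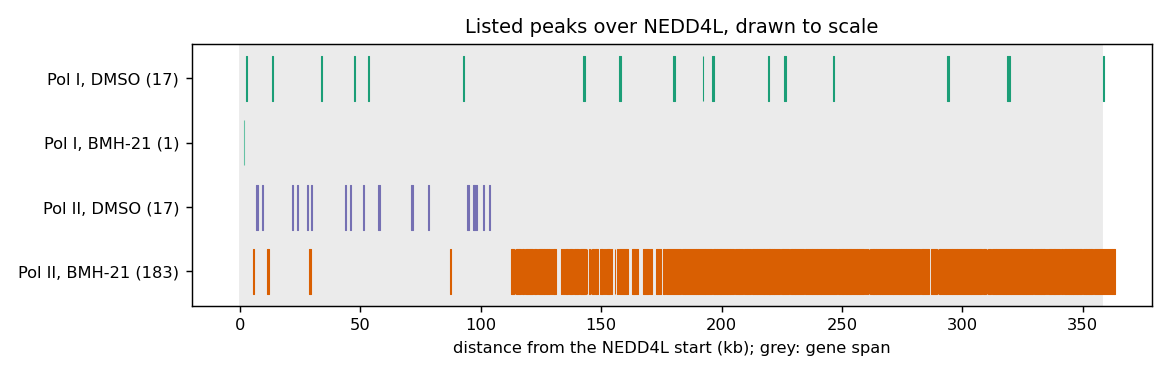
Listed peaks of the 4 libraries over NEDD4L, drawn to scale by distance from the gene start in kb (x axis), 1 row per list with its number of peaks in the window and the gene span in grey. The DMSO Pol II peaks end at 103.92 kb and the run of BMH-21 Pol II peaks begins at 112.39 kb.

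The Pol II peaks of the 2 treatments were listed mostly in different parts of the gene. In the first 112 kb, from the start to the run, the DMSO list had all 17 of its peaks and the BMH-21 list 6. In the next 251 kb the DMSO list had 0 and the BMH-21 list 177. The covered share went from 8.26% to 0% for DMSO and from 1.52% to 85.5% for BMH-21. The boundary is the start of the run, so the BMH-21 split follows from how the run was defined and is a description only. The last DMSO Pol II peak ended 8.47 kb before the first peak of the run. Stretches without a listed DMSO Pol II peak are common, since 30.1% of the 7529 windows of 399 kb held none.

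Upstream, the DMSO Pol II peaks were at most 918 bp wide, low in score and several kb apart. They began at 6.71 kb from the gene start and ended at 103.92 kb, with 8 peaks in the first 50 kb, 7 in the next 50 kb and 2 beyond 100 kb. Their widths ran from 343 to 918 bp with a median of 516 bp, and their scores from 50.99 to 137.6 with a median of 61.27. Scores are values the authors gave each peak, on a transformed p-value scale whose details are not stated, and they describe peaks within a list only. The free stretch between neighbours had a median of 3.09 kb and ran from 154 bp to 15.9 kb. The 3 DMSO Pol II peaks with the highest scores were also the 3 widest. The leading one lay at chr18:55808371-55809288, 97.37 kb from the start, with a score of 137.6 and a width of 918 bp. The other two lay at chr18:55782181-55782914 (score 107.82, 734 bp) and chr18:55768480-55769223 (score 100.78, 744 bp).

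The DMSO Pol II list was empty from 103.92 to 412.78 kb, a stretch of 309 kb that holds the whole run and the end of the gene. The numbering skips 3 numbers over this stretch, so peaks numbered there and not listed would be at most 3 by the numbers. Within the 17 peaks 2 numbers are skipped. Before them, the nearest listed DMSO Pol II peak was 247 kb upstream, with 1 number skipped between.

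The 6 BMH-21 Pol II peaks before the run were narrower at the median than the DMSO peaks, and the first of them lay before the first DMSO peak. They lay at 5.47, 11.31, 11.59, 28.59, 29.06 and 87.42 kb from the start. Their widths, with a median of 258.5 bp against 269 bp in the whole BMH-21 Pol II list, were 273, 221, 346, 388, 244 and 238 bp. Their scores were 55.03, 50.83, 58.8, 81.2, 54.54 and 51.2. The nearest DMSO Pol II peak was between 0.019 and 6.68 kb away, with a median of 1.34 kb, and none overlapped. Overlap of BMH-21 with DMSO Pol II peaks was not counted over the whole lists. Whether its absence here is usual was therefore not tested. The BMH-21 numbering skips 3 numbers within these 6 peaks, and 5 more between the last of them and the run. None of the 4 lists had a peak in the 20 kb before the gene or in the first 1 kb of it.

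The run held 177 peaks at chr18:55823391-56074257, with a run taken as 10 or more peaks and no free stretch over 10 kb. It began 112 kb into NEDD4L, at 31.4% of the gene's length, extended over the remaining 68.6% and ended 5.26 kb past the rounded gene end. Distances count from the start of the rounded span. RefSeq also gives starts further downstream, which were not placed on hg19, so the distance of the run from them was not measured. The first peak of the run was chr18:55823391-55823783 (393 bp, score 100.75) and its last chr18:56074025-56074257 (233 bp, score 59.02). The numbers of the 177 peaks are consecutive, with 0 skipped. With free stretches of at most 1 kb the run fell into 3 pieces, the largest with 111 peaks from 175.81 kb onward. The run made up 1.53% of the BMH-21 Pol II list by number, 4.31% by covered length and 13.8% of its 109 peaks with a score of 1000 or more. In the same list, the next peak after the run was 269 kb away, with 3 numbers skipped between.

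Peaks in the run nearly touched one another. The 176 free stretches between neighbours had a median of 109 bp and a mean of 206 bp, and ran from 1 to 2277 bp. Of them, 83 (47.2%) were at most 100 bp and 65 at most 50 bp, while 12 were over 500 bp and 6 over 1000 bp. In all, 36.3 kb of the 251 kb was free of peaks. The median distance between neighbouring centres was 1.05 kb, against 3.71 kb for the DMSO Pol II peaks upstream.

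**Figure D2:**
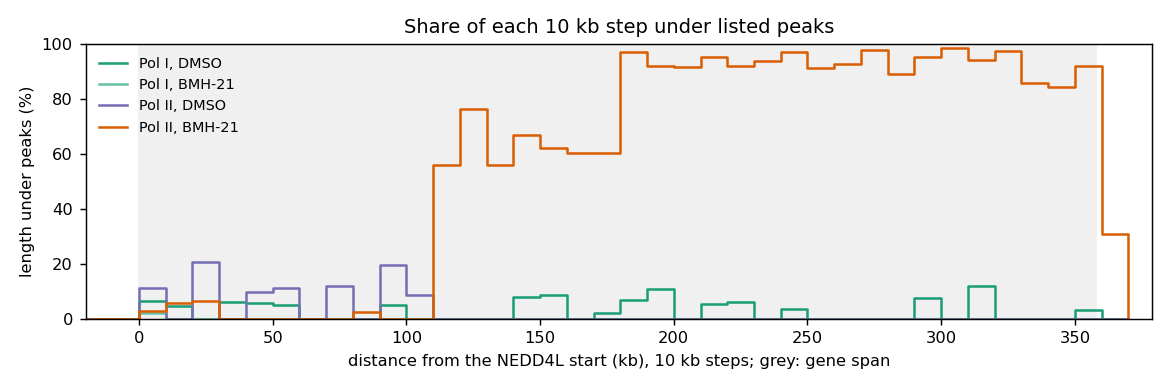
Share of each 10 kb step under listed peaks (y axis, %) by distance from the NEDD4L start (x axis, kb), 1 line per list and the gene span in grey. The BMH-21 Pol II line lies at 55.8 to 76.5% from 110 to 180 kb and at 84.5 to 98.6% from 180 to 360 kb.

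Cover by BMH-21 Pol II peaks was higher further along the gene. In 11 steps of 10 kb from the start to 110 kb, between 0 and 6.32% of the length was under peaks. From 110 to 180 kb, 7 steps had 55.8 to 76.5% with a median of 60.4%. From 180 to 360 kb, 18 steps had 84.5 to 98.6% with a median of 93.2%. The limits at 110, 180 and 360 kb were set after seeing the profile.

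Median width and score within the run were higher in the downstream 50% of its length. In the upstream 50% of its length 102 peaks covered 77.98%, with a median width of 640.5 bp and a median score of 160.37. In the downstream 50%, 75 peaks covered 93.1%, with a median width of 1068 bp and a median score of 316.58. The median free stretch was 171 bp in the upstream part and 74.5 bp in the downstream part, and 10 of the free stretches over 500 bp lay upstream against 2 downstream. With the run cut into 10 equal parts, the median width was lowest in the second part, at 437 bp, and highest in the seventh, at 1952 bp. The increase was not steady, since the sixth part had a median of 647 bp and the last 892 bp. The peak second in score in the run (2768.77) lay in the upstream 50%, at 176.82 kb from the gene start.

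**Figure D3:**
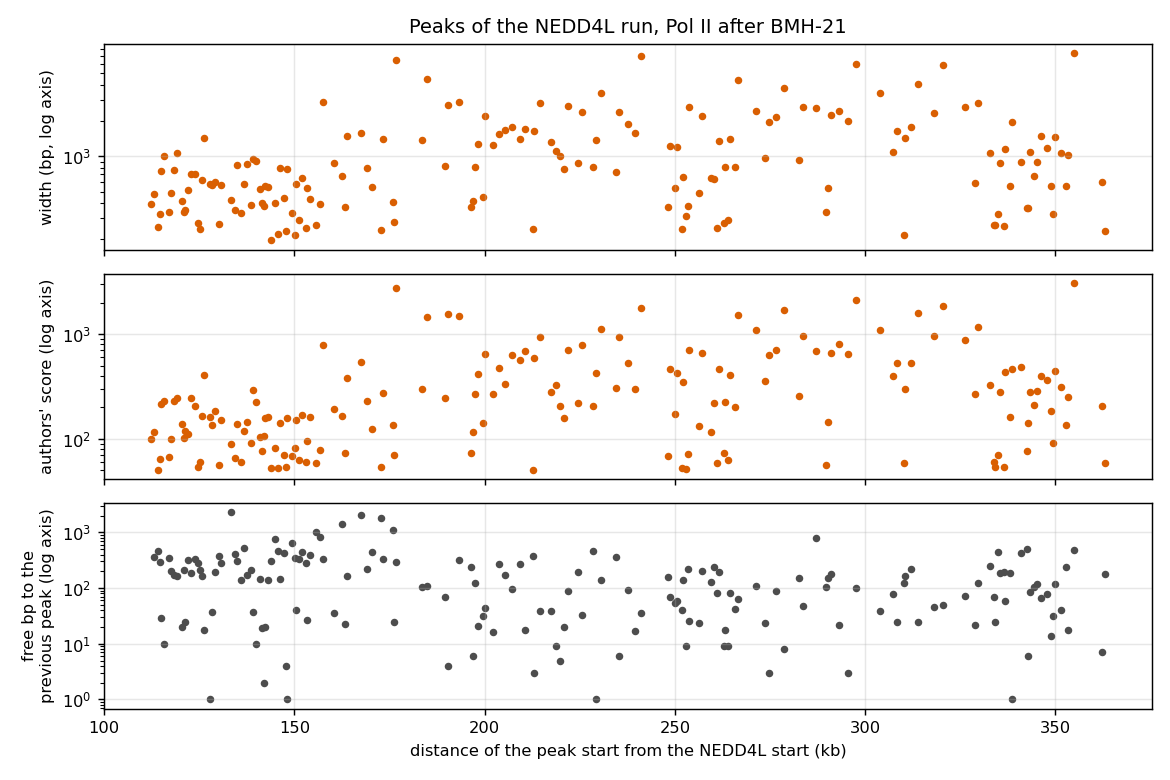
Width in bp, authors' score and free bp to the previous peak (y axes, log scale) for the 177 BMH-21 Pol II peaks of the run, by distance of the peak from the NEDD4L start in kb (x axis). Widths run from 194 to 7399 bp and scores from 50.56 to 3100, with narrow, low-scored peaks present along the whole run.

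A minority of the peaks carried much of the cover. Widths in the run ran from 194 to 7399 bp with a median of 784 bp, and 30 peaks of at least 2000 bp made up 48.5% of the covered length. The widest was also the one with the highest score, chr18:56065837-56073235, which is 7399 bp wide, has a score of 3100 and crosses the rounded gene end. That score is shared by 14 BMH-21 Pol II peaks, with only 1 peak of the list above it, and is the top score of 11 runs, so it does not rank them. It was followed in score by chr18:55887822-55894339 (6518 bp, score 2768.77) and chr18:56008710-56014763 (6054 bp, score 2107.7). By width the second was chr18:55952163-55959156, at 6994 bp with a score of 1780.07. In the run 15 peaks had a score of 1000 or more and 45 (25.4%) one below 100, whereas 86.5% of the whole BMH-21 Pol II list was below 100. The median width of that list was 269 bp and its median score 60.44.

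Pol I peaks were spread over the whole gene in the DMSO library. The 17 DMSO Pol I peaks covered 10.7 kb, or 2.69% of the window, and 2.32% of the windows held as many or more. Of the 17, 7 had a score at or above the median of their list. In the window 6 lay before the run and 11 within its limits, at 5.34 and 4.38 peaks per 100 kb, with 2.95% of the length covered in both parts. They started at 2.38, 13.43, 33.43, 47.31, 53.2 and 92.64 kb before the run. In the run they started at 142.46, 157.43, 179.78, 192.13, 196.05, 219.15, 226.04, 246.37, 293.53, 318.73 and 358.63 kb. The free stretches between them had a median of 19.6 kb and ran from 3.54 to 49.3 kb, and 10 numbers were skipped.

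The highest-scored DMSO Pol I peak of the gene was chr18:56029726-56030904, which was also the widest (1179 bp, score 451.79), 318.73 kb from the start. The next in score were chr18:55937045-55937660 (616 bp, score 257.37) and chr18:55868430-55869297 (868 bp, score 236.94), and the second in width was chr18:55890780-55891681 (902 bp, score 198.59). All 4 lay within the limits of the BMH-21 Pol II run. Median width was 545 bp in the 6 peaks before the run and 719 bp in the 11 within it, and the median score 77.39 and 109.51, with ranges that overlap (59.11 to 224.81 and 56.01 to 451.79).

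The only BMH-21 Pol I peak was close to the gene start. It was chr18:55712663-55712858, 196 bp wide with a score of 68.42, and 16.7% of the windows held 1 or more. It lay 1.66 kb from the rounded start and 0.521 kb from the nearest DMSO Pol I peak, which started at 2.38 kb. The next listed BMH-21 Pol I peaks on the chromosome were 12.4 Mb upstream, with 29 numbers skipped between, and 1.41 Mb downstream, with 22 skipped. More DMSO than BMH-21 Pol I peaks were listed in 97.8% of the 6760 windows with a Pol I peak, so the order of 17 to 1 over NEDD4L is that of most windows.

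On NEDD4L the listed DMSO peaks of Pol I and Pol II did not meet. Of the 17 DMSO Pol I peaks 0 overlapped a DMSO Pol II peak by 1 bp or more, and 0 lay within 1 kb of one. Over the whole DMSO Pol I list these shares were 14.0% and 18.1%, so most of its peaks also met none, and whether 0 of 17 differs from them was not tested. The nearest peaks of both lists after the window were chr18:56123866-56124388 (Pol I, score 178.21) and chr18:56123779-56124272 (Pol II, score 208.2), which overlap. Across treatments, a BMH-21 Pol II peak overlapped 11 of the 17 Pol I peaks listed for DMSO (64.7%), against 2.43% of the whole DMSO Pol I list. These were the 11 within the limits of the run, 85.5% of which lies under BMH-21 Pol II peaks. The window was selected on the BMH-21 Pol II list, so the 64.7% is a description only. The single BMH-21 Pol I peak overlapped no peak of another list, and the nearest BMH-21 Pol II peak was 3.62 kb away.

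The peaks just inside the window were the BMH-21 Pol I peak at its upstream side and the last peak of the run at its downstream side, both given above. The nearest peak outside was a DMSO Pol I peak 2.84 kb before the window (score 95.39), and on the other side the DMSO Pol II peak 33.8 kb after it.

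Among the 54 runs of the BMH-21 Pol II list, the one on NEDD4L ranked 1 in peaks, in length and in covered length and 11 in covered share. In 20 of the 54, this one included, the top score was 1000 or more. The other 19 of these had a median length of 95.2 kb and covered shares of 59.7 to 99.4% with a median of 85.9%, so the 85.5% on NEDD4L was close to that median. The 3 runs nearest in number of peaks were at chr21:22370429-22549929 (151 peaks), chr14:30133304-30246048 (92 peaks) and chr5:54708698-54831090 (86 peaks). Their lengths were 179.5, 112.7 and 122.4 kb and their covered shares 84.3, 73.4 and 83.9%. Median peak widths were 689, 698.5 and 829.5 bp, against 784 bp on NEDD4L, and median free stretches 112.5, 125 and 107 bp against 109 bp.

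**Figure D4:**
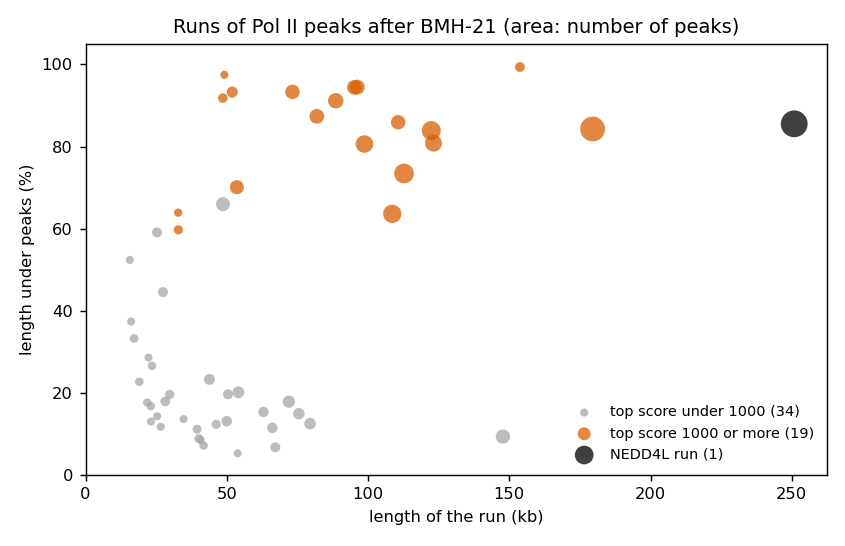
The 54 runs of BMH-21 Pol II peaks by length in kb (x axis) and share of the length under peaks in % (y axis), with the area of a point growing with its number of peaks. The NEDD4L run (black) is the longest at 251 kb, and its covered share of 85.5% lies among those of the 19 other runs with a top score of 1000 or more.

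The uneven cover along NEDD4L had counterparts in other runs. The downstream 50% of the NEDD4L run was covered 15.1 percentage points more than the upstream 50%, the seventh-largest such difference, in either direction, of the 20 high-scored runs. The 19 others had a median of 4.65 points and reached 73.4 points. On chromosome 21 the difference was 0.185 points and on chromosome 14 it was 25.8 points. DMSO Pol I peaks inside numbered 11 on NEDD4L and 0 to 12 in the others. Per 100 kb there were 4.38 on NEDD4L against a median of 5.53.

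DMSO Pol II peaks lay mostly on 1 side of the NEDD4L run. Within 100 kb before it there were 15 and within 100 kb after it 1, a difference of 14. In the 19 other high-scored runs this difference, in either direction of the chromosome, had a median of 3 and was at most 10. The order depends on the distance counted. Within 50 kb the NEDD4L run had 7 and 1, a difference of 6 that 2 other runs exceeded (highest 9), and within 200 kb it had 17 and 2, a difference of 15 that 3 others exceeded (highest 35). Of the 20 runs, 11 had DMSO Pol II peaks within 100 kb on 1 side, 7 on both and 2 on none, and 16 had 0 inside. The 3 runs nearest in number had 0 and 2, 4 and 0, and 0 and 0 peaks before and after. For the other runs neither the gene nor its strand was looked up, so before and after are by chromosome position.

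**Figure D5:**
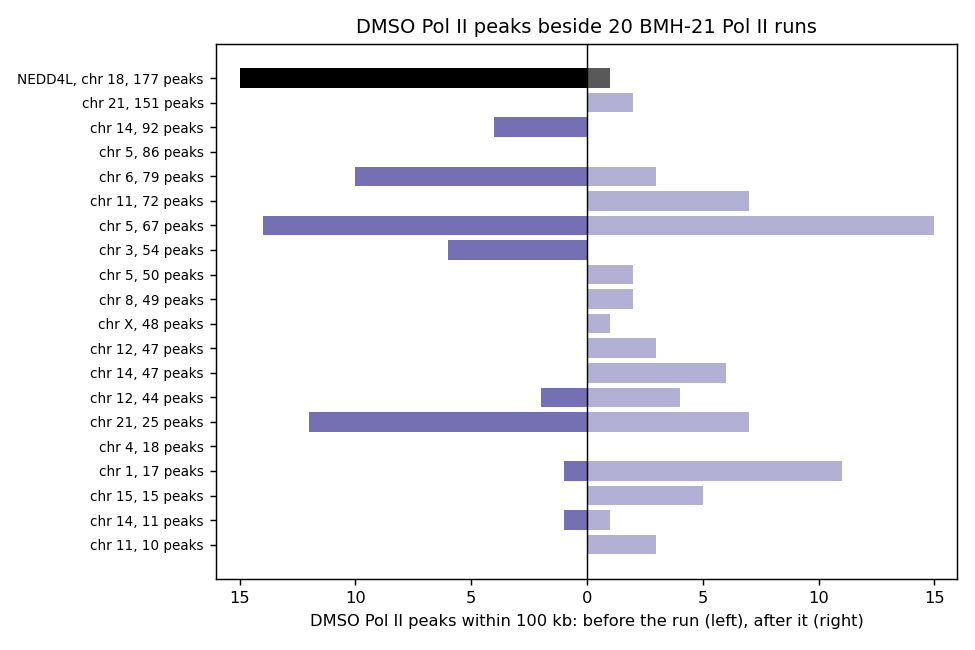
DMSO Pol II peaks within 100 kb before (bars to the left) and after (bars to the right) each of the 20 BMH-21 Pol II runs with a top score of 1000 or more, by chromosome and number of peaks in the run. NEDD4L, in black, has 15 before and 1 after.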

How the data were processed

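ChIP-seq peaks of LNCaP cells were used, 1 list for each antibody and treatment, and samples were grouped by their titles. The build was hg19, and the tools named were Bowtie2 2.2.1, deepTools 3.5.4 and CASAVA 1.8.2, per the submitters' processing notes. The authors' deposited lists give position, a numbered name beginning with MACS and 1 score per peak. The score column is headed as a p-value per the file headers, but its values start at 50. Not given in the sources used here are the caller's settings, the use of the inputs and how listed peaks were selected.

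Starts were read as zero-based and moved by 1. A peak belonged to the window if it overlapped it by 1 bp, and cover was cut at the window's edges. Same-length windows were laid from the first listed peak of each chromosome. Functions for cover, runs and overlap were tested on simulated data. The gene, the run definition and the alternatives were chosen with earlier results of these data known. The rule for peaks given with coordinates was all peaks of a list with 5 or fewer in the window. In longer lists it was the 3 highest in score, the 3 widest and both ends of the run. Upstream Pol II peaks, Pol I starts and peaks outside the window were added after their values were seen. Genes related to NEDD4L were planned and not analysed here, since no hg19 gene positions were used. Python 3.11.15, NumPy 2.4.6, pandas 2.3.3 and matplotlib 3.10.9 were used.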

Additional observations from a re-analysis of the deposited data

Results flagged for a closer look

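The change in listed peaks over NEDD4L from DMSO to BMH-21 went in opposite directions for the 2 antibodies. Pol II peaks went from 17 to 183, a difference of 166, and Pol I peaks from 17 to 1, a difference of -16. The window was selected on the BMH-21 Pol II list, so the Pol II difference is a description only. More DMSO than BMH-21 Pol I peaks were listed in 97.8% of the windows with a Pol I peak. More BMH-21 than DMSO Pol II peaks were listed in 13.9% of those with a Pol II peak. With 1 library for each antibody and treatment, the difference between the antibodies was not tested.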

How the results depend on the processing

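The 35 results had 123 alternative values, of which 96 were within 1.5 times the main one and 27 were not. At or above the median score of the list, or of the DMSO list of the antibody, DMSO peaks in the window numbered 7 for Pol I (5.73 kb, 1.44% covered) and 4 for Pol II (3.04 kb, 0.761%). The BMH-21 Pol I peak was lost (0 peaks, 0 kb, 0%) at the DMSO median score and at a minimum width of 300 bp. With free stretches of at most 1 kb the run fell into 3 pieces, the largest with 111 peaks, a start 175.81 kb from the gene start and a median free stretch of 70 bp, and with at most 2 kb the largest piece of 3 had 116 peaks. Spacing measured between centres was 1048 bp in place of 109 bp, by construction. With free stretches of up to 20 kb the run ranked 2 in length. With windows moved by 50% of their length, 0.0133% held as many BMH-21 Pol II peaks. Within 50 kb before the run lay 7 DMSO Pol II peaks, and within 200 kb after it 2. These distances, leaving out the 3 widest peaks (77.2% covered) and the window placed from a peak were chosen after seeing the data. No paired analysis was possible because each group had 1 sample. The lists give no depth, and peaks with skipped numbers could not be placed.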
